A study of Homo sapiens with 7 samples.

Results

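Glycolysis and the transcriptional response to low oxygen were followed through a list of 36 genes in MOLM13, a human cell line from acute myeloid leukemia. Genes were matched to the deposited table by symbol. The table has values for 35 of the 36 among 11408 genes with values; the prolyl hydroxylase EGLN3 was not analysed here. The list holds 25 genes of glucose handling and 10 genes of the hypoxia response. RNA was measured in 7 libraries, all harvested 6 days after transduction with a guide RNA. The 3 control libraries carried sgRosa, which the labels call non-targeting, and the remaining 4 were made with 2 different guides to ZFP36L2, each used for 2 libraries. These are called guide 3 and guide 5 after the deposited columns, because nothing in the files ties those names to the numbering of the labels. The cells were grown in RPMI-1640 with serum, and the labels name no hypoxia treatment, Cas9 source, editing efficiency or clone. Separate cultures are not named for the replicates, and the p-values then measure no more than the spread between these samples.

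Glycolysis splits glucose into pyruvate in the cytosol, and lactate dehydrogenase turns pyruvate into lactate, which monocarboxylate transporters carry out of the cell. The transcription factor HIF-1 is built from an oxygen-labile alpha subunit, HIF1A, and a stable partner, ARNT. When oxygen is present, prolyl hydroxylases of the EGLN family mark the alpha subunit for ubiquitination by the VHL complex. When oxygen is low, the subunit escapes, and HIF-1 binds hypoxia response elements with the core letters ACGTG and raises transcription of glucose transporters, glycolytic enzymes, VEGFA and EGLN genes. Myeloid cells use the same program during inflammatory activation, when oxygen need not be low. ZFP36L2, the targeted gene, encodes a zinc finger protein of the ZFP36 family, which recruits the decay machinery to mRNAs with AU-rich 3′ UTRs. RNA levels do not show the HIF1A protein, enzyme activity or glucose flux.

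Levels are given in CPM, read counts scaled to the authors' adjusted library size, which were recovered from the deposited values. The recovered reads in listed genes ranged from 16907955 to 38807816 per library, and a single read stood for 0.0261 to 0.0540 CPM. ZFP36L2 mRNA stood at 337, 334 and 311 CPM in controls, 1132 and 1353 CPM with guide 3, and 734 and 690 CPM with guide 5, a log2 change of 1.52 ± 0.16 (SE, adjusted p = 1.3e-05). It was higher in the guide-labelled libraries. Small insertions or deletions need not lower an mRNA, so this level does not check the labels, and higher or lower always refers to how the libraries were labelled. Of 8 monocyte and macrophage markers 7 were in the table, and their summed level was 69.6 to 88.7 CPM in controls and 542 to 1650 CPM in guide-labelled libraries. None of the 7 was at 0 in any library, and CD163 was not analysed here. The 10 myeloid markers summed to 5467 to 8049 CPM and to 11090 to 20380 CPM; LYZ made up most of both sums, at 3623 to 6708 CPM in controls and 9387 to 18450 CPM with guides. SPI1, LYZ, CSF3R and ANPEP rose, while MPO (-0.80), FLT3 (-0.80) and MEIS1 (-0.93) fell. The T and NK markers CD3D and NKG7 summed to 38.0 to 52.2 CPM and to 78.4 to 103.7 CPM; NKG7 rose and CD3D fell with guides. Of 15 markers in the T and NK, B, erythroid, and epithelial and fibroblast lists, 12 were not in the table. The part of these shifts in the results below was not tested, and in bulk RNA fewer cells of a type cannot be told apart from less RNA per cell. Control replicate 2 stood farther from the other controls (0.606 and 0.635, root mean square log2 difference over all genes) than these did from each other (0.375), and libraries of the same guide differed by 0.249 and 0.269.

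Most of the list was higher in the guide-labelled libraries. With both guides together 21 of 35 members rose, 2 fell and 12 did not pass the threshold of 0.05 on the adjusted p of limma. Among all 11408 genes 20.9% rose and 20.6% fell. The median log2 change of the members was 0.59, against -0.05 over all genes, and 30 of the 35 had a positive change. The largest rises were those of the enolase ENO2 (2.37 ± 0.20), the aldolase ALDOC (2.32 ± 0.18), the lactate exporter SLC16A3 (2.17 ± 0.31), the angiogenic growth factor VEGFA (1.99 ± 0.22) and PFKFB4 (1.98 ± 0.18), which makes the allosteric activator of phosphofructokinase. The 2 that fell were the oxygen sensor EGLN1 (-0.59 ± 0.16, adjusted p = 0.011) and LDHB, a lactate dehydrogenase subunit (-0.53 ± 0.20, adjusted p = 0.0494). In 20 members each guide library lay above each control, as did 19.8% of all genes, and in 2, EGLN1 and LDHA, each lay below each control, as did 23.7% of all genes. Leaving out control replicate 2 gave 24 members up and 2 down, with 3076 and 2299 of all genes. Over all genes the counts were 1741 and 1753 without control replicate 1, and 2600 and 2951 without control replicate 3. The counts over all genes thus moved too. Among members 15 rose and 1 fell without control replicate 1, and 19 rose and 3 fell without control replicate 3. With any one guide library left out fewer members rose, and fewer of all genes rose or fell. Those fits leave a single library for that guide. In GRCh38 (GENCODE 29) ENO2 spans bases 6913745 to 6923698 of chromosome 12, close to GAPDH (6533927 to 6538374) and TPI1 (6867119 to 6870948). ALDOC lies on chromosome 17 at 28573115 to 28577264, SLC16A3 on chromosome 17 at 82228397 to 82261129, VEGFA on chromosome 6 at 43770184 to 43786487, PFKFB4 on chromosome 3 at 48517684 to 48562015 and EGLN1 on chromosome 1 at 231363751 to 231425044.

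**Figure D1:**
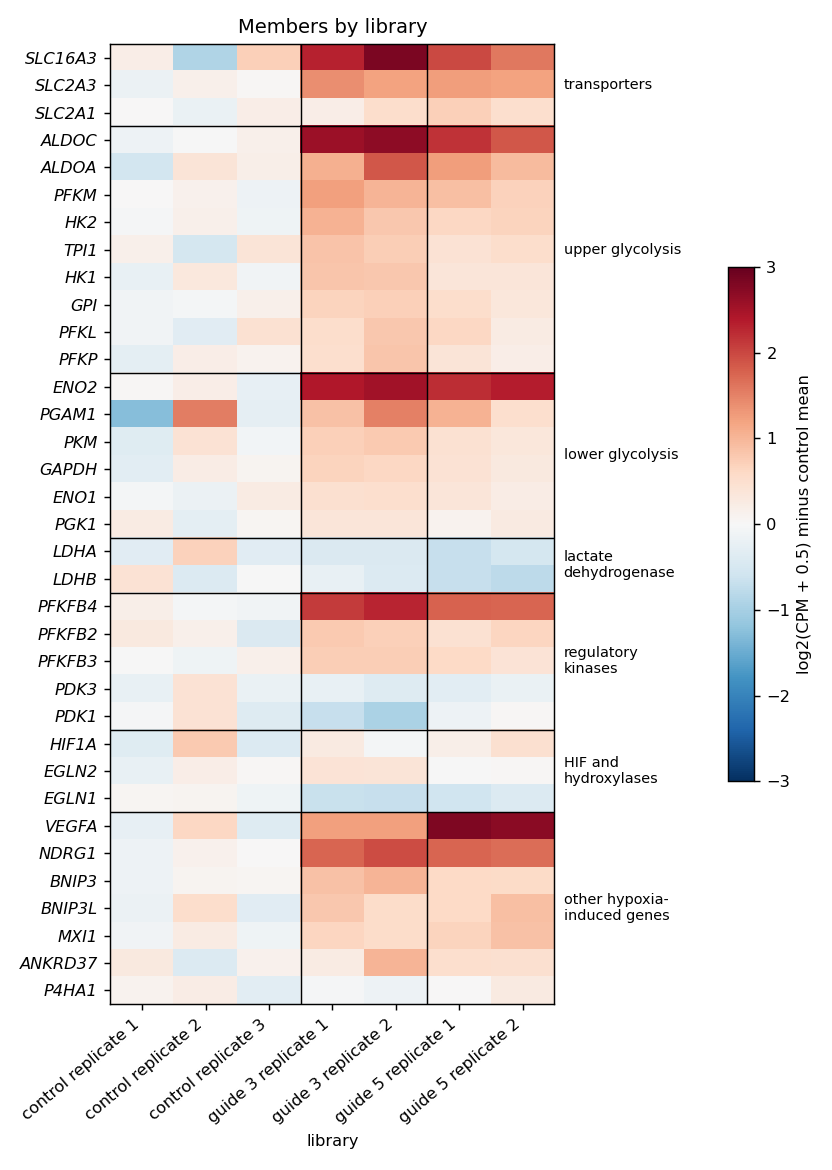
Level of each of the 35 members (rows, grouped by role) in each of the 7 libraries (columns), as log2(CPM + 0.5) minus the mean of the 3 controls; red is higher and blue lower. ALDOC, ENO2, SLC16A3, PFKFB4 and NDRG1 are red in all 4 guide columns, VEGFA is darker with guide 5 than with guide 3, and the rows of LDHA, LDHB and EGLN1 are blue in the guide columns.

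Each guide was also set against the same 3 controls. With guide 3, 20 members rose and 2 fell (EGLN1 and PDK1), with a median of 0.68; of all genes 21.2% rose and 18.9% fell. With guide 5, 11 rose and 1 fell (LDHB), with a median of 0.50; of all genes 12.2% rose and 7.68% fell. The 11 that rose with guide 5 were SLC2A3, SLC16A3, HK2, PFKM, ALDOA, ALDOC, ENO2, PFKFB4, NDRG1, VEGFA and MXI1, and each of them also rose with guide 3. When the guides were compared with each other, VEGFA was the single member past the threshold, as were 0.351% of all genes upward and 0.0614% downward with guide 5. The median difference of guide 5 minus guide 3 was -0.23 over the members and -0.03 over all genes. A member that passed with 1 guide alone is therefore not shown to differ between guides. Without guide 3 replicate 1 or 2, the rises with guide 3 numbered 9 and the falls 0. The rises with guide 5 numbered 19 without control replicate 2 and 7 without control replicate 1. Shares of all genes in these fits are not given here, so the counts cannot be read as particular to the members.

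**Figure D2:**
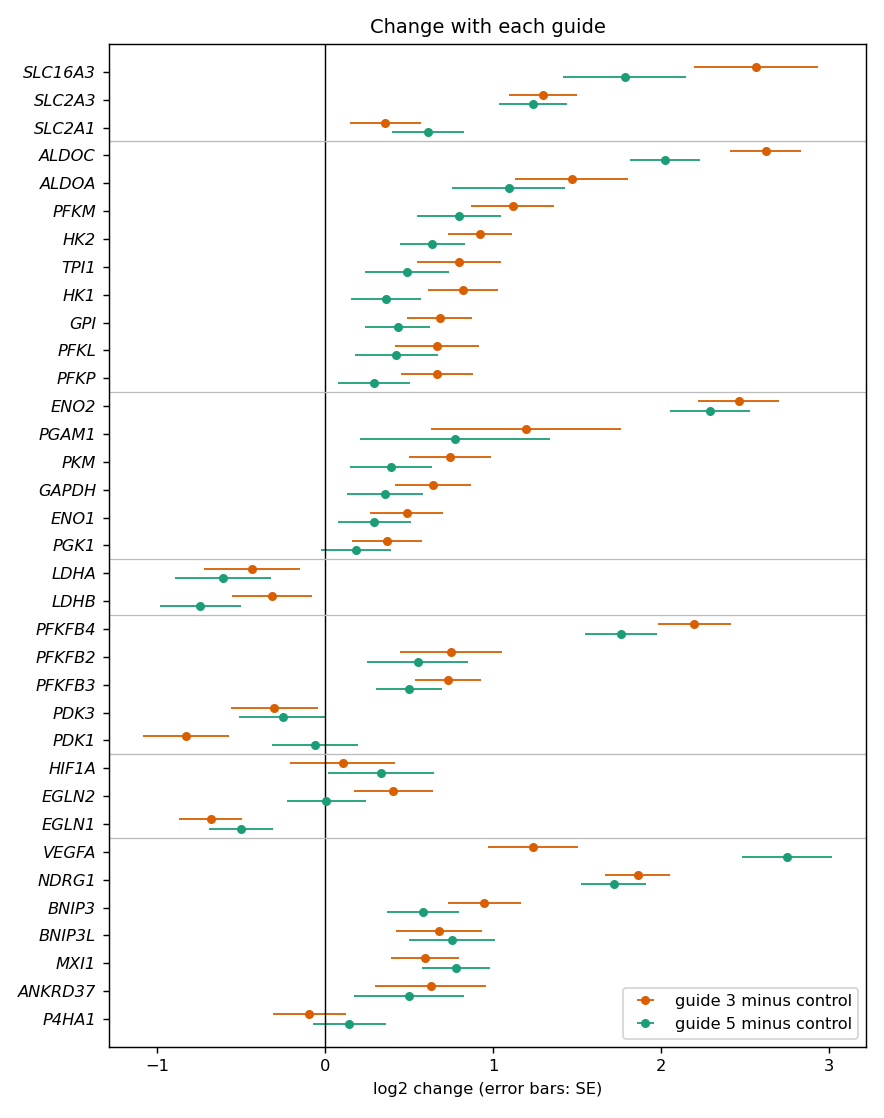
Log2 change of each of the 35 members with guide 3 (orange) and guide 5 (green) against the same controls; points are estimates of the limma fit, bars are SE, and grey lines separate the roles. VEGFA is the member whose guide 5 point (2.75) lies farthest to the right of its guide 3 point (1.24).

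The letters ACGTG were searched on both strands in RefSeq promoter windows of GRCh38.p14, from 250 bases before to 50 bases after each listed start. Of the 35 members 30 had a window, 60 windows in all, and 41.7% of these held ACGTG or its reverse complement CACGT, against 21.4% of all 35116 windows and 25.7% of the 12242 windows of genes in the table. Counted by gene, 21 of 30 members (70.0%) had a match in some window, against 33.0% of 8371 genes, with 2.0 and 1.46 windows per gene. Matches were found in 13 of 17 risen members with a window, 1 of 2 fallen members and 7 of 11 others. The 250 bases before the start are shown for 3 risen members and for LDHA, which had 5 matches and did not rise. All are written 5′ to 3′ along the gene's strand, and capitals mark ACGTG and CACGT, which overlap in CACGTG.
ALDOC (chr17:28576896-28577145, minus strand): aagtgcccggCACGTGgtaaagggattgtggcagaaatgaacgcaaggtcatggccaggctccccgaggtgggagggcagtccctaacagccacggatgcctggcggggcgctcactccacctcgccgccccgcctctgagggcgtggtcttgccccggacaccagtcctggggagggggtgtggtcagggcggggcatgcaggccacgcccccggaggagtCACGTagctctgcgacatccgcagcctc
ENO2 (chr12:6914330-6914579, plus strand): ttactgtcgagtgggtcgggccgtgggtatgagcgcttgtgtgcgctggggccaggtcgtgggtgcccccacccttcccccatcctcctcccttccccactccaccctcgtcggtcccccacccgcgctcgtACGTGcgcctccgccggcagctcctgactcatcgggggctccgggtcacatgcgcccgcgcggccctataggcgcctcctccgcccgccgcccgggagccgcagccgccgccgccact
BNIP3 (chr10:131981924-131982173, minus strand): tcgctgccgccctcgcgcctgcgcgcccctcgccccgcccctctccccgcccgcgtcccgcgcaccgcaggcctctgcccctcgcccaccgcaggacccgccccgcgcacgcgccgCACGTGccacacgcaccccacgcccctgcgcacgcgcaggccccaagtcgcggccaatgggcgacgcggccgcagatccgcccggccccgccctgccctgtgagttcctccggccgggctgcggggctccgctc
LDHA (chr11:18394313-18394562, plus strand): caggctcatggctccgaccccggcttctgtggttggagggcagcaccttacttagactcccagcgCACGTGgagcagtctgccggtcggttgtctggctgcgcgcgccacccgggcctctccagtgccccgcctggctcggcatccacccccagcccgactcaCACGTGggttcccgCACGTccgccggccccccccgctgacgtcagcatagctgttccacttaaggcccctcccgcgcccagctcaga

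The matches lay 28 to 240 bases before the start in ALDOC, 118 bases before it in ENO2, 133 to 134 bases before it in BNIP3 and 73 to 185 bases before it in LDHA. The windows of ALDOC, BNIP3 and LDHA thus hold the palindrome CACGTG, and that of LDHA holds it more than once. By the gene spans of GENCODE 29, which include transcripts with earlier starts, the printed bases of ALDOC and ENO2 lie inside the gene and those of BNIP3 and LDHA cross its 5′ end. A match says only that the letters are there.

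A second set of letters, TATTTAT, is the core of the AU-rich elements that proteins of the ZFP36 family bind. It was searched on the transcript strand in the longest 3′ UTR of each coding gene in GENCODE 29. It was present in 15 of 35 members (42.9%) and in 34.9% of 10618 coding genes of the table; the median 3′ UTR was 1110 bases long among members and 1354 bases among all, with 1666 bases among the risen members. By result, 11 of 21 risen, 0 of 2 fallen and 4 of 12 other members held it. Sites of 5 members are shown as the DNA letters of the transcript, with each TATTTAT in capitals, because 4 of these members are among the larger rises that hold it and HIF1A did not pass.
ENO2: tttagtgTATTTATTTATTTATTTATttt
VEGFA: ttgttatcattTATTTATtggtgctactg
SLC16A3: gcaacgcttgcTATTTATtttacaaactg
SLC2A3: catgatggaaaTATTTATttttttaagcg
HIF1A: atgcaccttttTATTTATTTATttttggc

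ENO2 held 4 overlapping copies in a 3′ UTR of 898 bases, VEGFA 3 copies in 1925 bases, HIF1A 3 copies in 1319 bases, SLC2A3 2 copies in 2183 bases and SLC16A3 a single copy in 1110 bases. ALDOC and PFKFB4, which were among the 5 largest rises, held 0 copies in 411 and 2063 bases. No binding was measured here.

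Sugar enters and lactate leaves through transporters, and the 3 of the list rose. SLC2A3 encodes GLUT3, a glucose transporter with high affinity. It stood at 22.3, 28.3 and 26.1 CPM in controls, 67.7 and 59.1 CPM with guide 3, and 61.8 and 59.6 CPM with guide 5. The groups did not overlap, and the log2 change was 1.27 ± 0.17 (adjusted p = 0.00012). SLC16A3 encodes MCT4, which exports lactate from glycolytic cells. It stood at 65.2, 30.0 and 92.8 CPM in controls, 283 and 402 CPM with guide 3, and 226 and 171 CPM with guide 5. Its controls spread from 30.0 to 92.8 CPM, yet the lowest guide library lay above the highest control (2.17 ± 0.31, adjusted p = 0.00017). SLC2A1 encodes GLUT1, the most widely expressed glucose transporter. It stood at 48.9, 42.1 and 56.4 CPM in controls, 56.1 and 70.1 CPM with guide 3, and 80.5 and 69.6 CPM with guide 5. Guide 3 replicate 1 lay just below control replicate 3, and the change was 0.49 ± 0.18 (adjusted p = 0.044). The adjusted p of SLC2A1 was 0.069 to 0.20 without control replicate 1 or any one of the 4 guide libraries, and 0.19 after correction for GC content. Per kilobase of transcript, SLC2A3 made up 33.0% ± 4.9 (SD, n = 3) of the SLC2A1 and SLC2A3 total in controls and 45.9% ± 4.9 (SD, n = 4) with guides. The ranges of 30.0% to 38.7% and 41.8% to 53.1% did not overlap.

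In upper glycolysis, from hexokinase to triosephosphate isomerase, 8 of 9 members rose and 0 fell, with a median log2 change of 0.64. ALDOC, an aldolase best known from brain, had the largest rise. It stood at 13.3, 14.7 and 16.5 CPM in controls, 89.6 and 97.7 CPM with guide 3, and 68.6 and 55.4 CPM with guide 5. The guide-labelled mean of 77.8 CPM was 5.24 times the control mean of 14.8 CPM (log2 change 2.32 ± 0.18, adjusted p = 6.9e-07). ALDOA, the aldolase of muscle and most other cells, was counted at 1.24, 2.81 and 2.37 CPM in controls, 4.85 and 8.78 CPM with guide 3, and 5.54 and 4.38 CPM with guide 5 (1.28 ± 0.28, adjusted p = 0.0038). This count is uncertain, because 42.3% of the exon bases of ALDOA are shared on the same strand with the gene model AC093512.2. The share of ALDOC in the aldolase total is not given for that reason. The adjusted p of ALDOA was 0.091 after correction for GC content, with a change of 0.71, and 2.7e-05 to 0.091 over the alternatives.

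HK2, the inducible hexokinase that traps glucose in the cell, stood at 131, 148 and 122 CPM in controls, 276 and 232 CPM with guide 3, and 204 and 211 CPM with guide 5 (0.78 ± 0.16, adjusted p = 0.0025). HK1, the constitutive hexokinase, stood at 98.6, 145 and 108 CPM, 206 and 204 CPM, and 150 and 149 CPM in the same order (0.59 ± 0.17, adjusted p = 0.017). In both genes each guide library lay above each control, for HK1 by a small margin with guide 5. Of their total per kilobase of transcript HK2 made up 41.8% ± 3.3 (SD, n = 3) in controls and 45.0% ± 2.4 (SD, n = 4) with guides, and the ranges overlapped. The adjusted p of HK1 was 0.053 to 0.075 without control replicate 1 or any one of the 4 guide libraries, and after correction for GC content its change was 0.36 (adjusted p = 0.066).

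Phosphofructokinase commits sugar to glycolysis and has 3 genes. PFKM, the muscle form, was low at 3.08, 3.37 and 2.70 CPM in controls, 7.75 and 6.64 CPM with guide 3, and 6.08 and 5.24 CPM with guide 5 (0.96 ± 0.21, adjusted p = 0.0035). It was the form with the largest change, and it made up 0.90% ± 0.23 (SD, n = 3) of the 3 forms per kilobase of transcript in controls and 1.30% ± 0.20 (SD, n = 4) with guides. PFKP, the platelet form, stood at 97.7, 138 and 129 CPM, 170 and 215 CPM, and 157 and 139 CPM (0.48 ± 0.18, adjusted p = 0.048). Guide 5 replicate 2 lay just above control replicate 2. Its adjusted p was 0.068 to 0.20 without control replicate 1 or any one of the guide libraries. After correction for GC content the change of PFKP was 0.025 (adjusted p = 0.90), and it passed in 10 of 21 alternatives. PFKL, the liver form, did not pass (0.55 ± 0.21, adjusted p = 0.0506); its control replicate 3, at 239 CPM, lay above guide 5 replicate 2, at 205 CPM. Without that control the change of PFKL was 0.78 (adjusted p = 0.0069; 0.0038 to 0.34 over the alternatives).

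GPI and TPI1, the isomerases of glucose 6-phosphate and of triose phosphate, rose as well. GPI stood at 479, 499 and 578 CPM in controls, 817 and 842 CPM with guide 3, and 746 and 652 CPM with guide 5 (0.56 ± 0.16, adjusted p = 0.016). TPI1 stood at 279, 173 and 325 CPM, 454 and 417 CPM, and 339 and 363 CPM (0.64 ± 0.21, adjusted p = 0.027). Each guide library lay above each control for both, with control replicate 2 the low one for TPI1. Without that control the change of TPI1 was 0.38 (adjusted p = 0.025). The adjusted p of TPI1 was 0.060 to 0.073 without any one of the guide libraries, and that of GPI was 0.053 to 0.097 without control replicate 1, guide 3 replicate 1 or 2, or guide 5 replicate 1. After correction for GC content the change of TPI1 was 0.27 (adjusted p = 0.23) and that of GPI 0.36 (adjusted p = 0.023).

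Lower glycolysis, from GAPDH to pyruvate kinase, had 3 of 6 members risen and 0 fallen, with a median of 0.53. ENO2, the neuronal enolase, was the exception in size. It stood at 3.19, 3.69 and 2.58 CPM in controls, 18.8 and 20.2 CPM with guide 3, and 16.4 and 18.1 CPM with guide 5. The guide-labelled mean of 18.3 CPM was 5.82 times the control mean of 3.15 CPM, with no overlap (2.37 ± 0.20, adjusted p = 1.8e-06). ENO1, the enolase of most cells, stood at 3061, 2850 and 3800 CPM, 4466 and 4527 CPM, and 4156 and 3729 CPM (0.39 ± 0.18, adjusted p = 0.10). ENO2 therefore remained a trace of the enolase mRNA, 0.0833% ± 0.0257 (SD, n = 3) of both per kilobase of transcript in controls and 0.360% ± 0.0319 (SD, n = 4) with guides.

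GAPDH, the dehydrogenase often used as a reference gene, stood at 2175, 3154 and 2884 CPM in controls, 4314 and 4141 CPM with guide 3, and 3645 and 3294 CPM with guide 5. Each guide library lay above each control, and the change of 0.50 ± 0.19 passed narrowly (adjusted p = 0.0493). PKM, the pyruvate kinase gene, stood at 1357, 2352 and 1651 CPM, 2848 and 2977 CPM, and 2374 and 2189 CPM (0.57 ± 0.20, adjusted p = 0.041). Guide 5 replicate 2 lay below control replicate 2. Leaving out control replicate 1 or 3, or any one of the 4 guide libraries, took both genes past 0.05, to 0.061 to 0.19 for GAPDH and 0.087 to 0.15 for PKM. After correction for GC content their changes were -0.0020 (adjusted p = 0.99) and 0.09 (adjusted p = 0.77). PGK1, the first ATP-yielding kinase of the pathway, did not pass (0.28 ± 0.17, adjusted p = 0.22), and after correction for GC content its change was 0.65 (adjusted p = 0.022; 0.022 to 0.44 over the alternatives). PGAM1, the phosphoglycerate mutase, spread widely in controls, at 26.9, 191 and 54.3 CPM, against 121 and 188 CPM with guide 3 and 135 and 93.6 CPM with guide 5 (0.98 ± 0.47, adjusted p = 0.11). Without control replicate 2 its change was 1.75 (adjusted p = 0.00052; 5.3e-06 to 0.53 over the alternatives). Pseudogenes that carry the name of a member can share reads with it: 62 for GAPDH, 39 for BNIP3, 13 for PGAM1, 6 for LDHA and 5 for PKM are annotated.

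The lactate dehydrogenase genes did not follow. LDHA, the subunit of the form that favors lactate formation and a textbook HIF-1 target, stood at 839, 1724 and 840 CPM in controls, 792 and 787 CPM with guide 3, and 665 and 740 CPM with guide 5. Each guide library lay below each control, but the change of -0.52 ± 0.24 did not pass (adjusted p = 0.096), and control replicate 2 lay far above the other controls. Without that control the change was -0.17 (adjusted p = 0.22), and without control replicate 3 it was -0.69 (adjusted p = 0.044); over the alternatives the adjusted p ran from 0.014 to 0.55. LDHB, the subunit of the form common in oxidative tissue, stood at 235, 131 and 173 CPM in controls, 150 and 131 CPM with guide 3, and 108 and 101 CPM with guide 5 (-0.53 ± 0.20, adjusted p = 0.0494). Its guide 3 libraries overlapped with control replicate 2. Its call was lost in each of 6 fits that left out a library other than control replicate 2, with adjusted p of 0.070 to 0.22, and after correction for GC content (-0.32, adjusted p = 0.23). It passed in 6 of 21 alternatives, and 33.4% of its exon bases are shared on the same strand with AC010197.2. The share of LDHA in both, per kilobase of transcript, was 78.1% ± 10.2 (SD, n = 3) in controls and 79.6% ± 2.2 (SD, n = 4) with guides. This share is uncertain because of the exon bases that LDHB shares. SLC16A1, the monocarboxylate transporter MCT1, is on the list of other glycolytic genes and fell from 177 ± 23.5 CPM (SD, n = 3) to 92.7 ± 25.3 CPM (SD, n = 4), a log2 change of -0.96 ± 0.16 (adjusted p = 0.00072), while the exporter SLC16A3 rose.

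Of the 5 regulatory kinases 2 rose and 0 fell. The PFKFB enzymes make and break fructose 2,6-bisphosphate, the activator of phosphofructokinase. PFKFB4 stood at 9.56, 8.04 and 7.74 CPM in controls, 37.7 and 43.3 CPM with guide 3, and 30.1 and 29.3 CPM with guide 5 (1.98 ± 0.18, adjusted p = 4.0e-06). PFKFB3, the form with the strongest kinase activity, stood at 42.8, 39.9 and 48.1 CPM, 72.4 and 72.7 CPM, and 66.0 and 57.8 CPM (0.62 ± 0.16, adjusted p = 0.010). The groups did not overlap for either gene. Per kilobase of transcript PFKFB4 made up 19.3% ± 2.5 (SD, n = 3) of the 3 PFKFB genes in controls, within 16.7% to 21.5%, and 38.9% ± 2.6 (SD, n = 4) with guides, within 36.01% to 42.3%. PFKFB3 went from 79.6% ± 2.9 (SD, n = 3) to 60.1% ± 2.6 (SD, n = 4) of the total. PFKFB2 was near 1 CPM and did not pass (0.65 ± 0.25, adjusted p = 0.055). It passed in 7 of 19 alternatives, with 0.79 without control replicate 1 (adjusted p = 0.044), 0.72 without control replicate 2 (adjusted p = 0.034) and 0.99 after correction for GC content (adjusted p = 0.0076; 0.0076 to 0.70 over the alternatives). The adjusted p of PFKFB3 was 0.054 without guide 3 replicate 2 and 0.068 without guide 5 replicate 1, and after correction for GC content its change was 0.30 (adjusted p = 0.038).

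The pyruvate dehydrogenase kinases PDK1 and PDK3 keep pyruvate out of the mitochondria, and PDK1 is a known HIF-1 target. PDK1 stood at 27.8, 38.9 and 21.9 CPM in controls, 17.5 and 14.6 CPM with guide 3, and 25.7 and 29.6 CPM with guide 5. It fell with guide 3 (-0.83 ± 0.26, adjusted p = 0.023), while guide 5 gave -0.06 ± 0.26 (adjusted p = 0.89) and the difference between guides did not pass (0.77 ± 0.28, adjusted p = 0.39). With both guides together PDK1 did not pass (-0.44 ± 0.21, adjusted p = 0.11), and without control replicate 3 the value was -0.64 (adjusted p = 0.027; 0.027 to 0.79 over the alternatives). PDK3 did not pass either (-0.28 ± 0.22, adjusted p = 0.32).

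**Figure D3:**
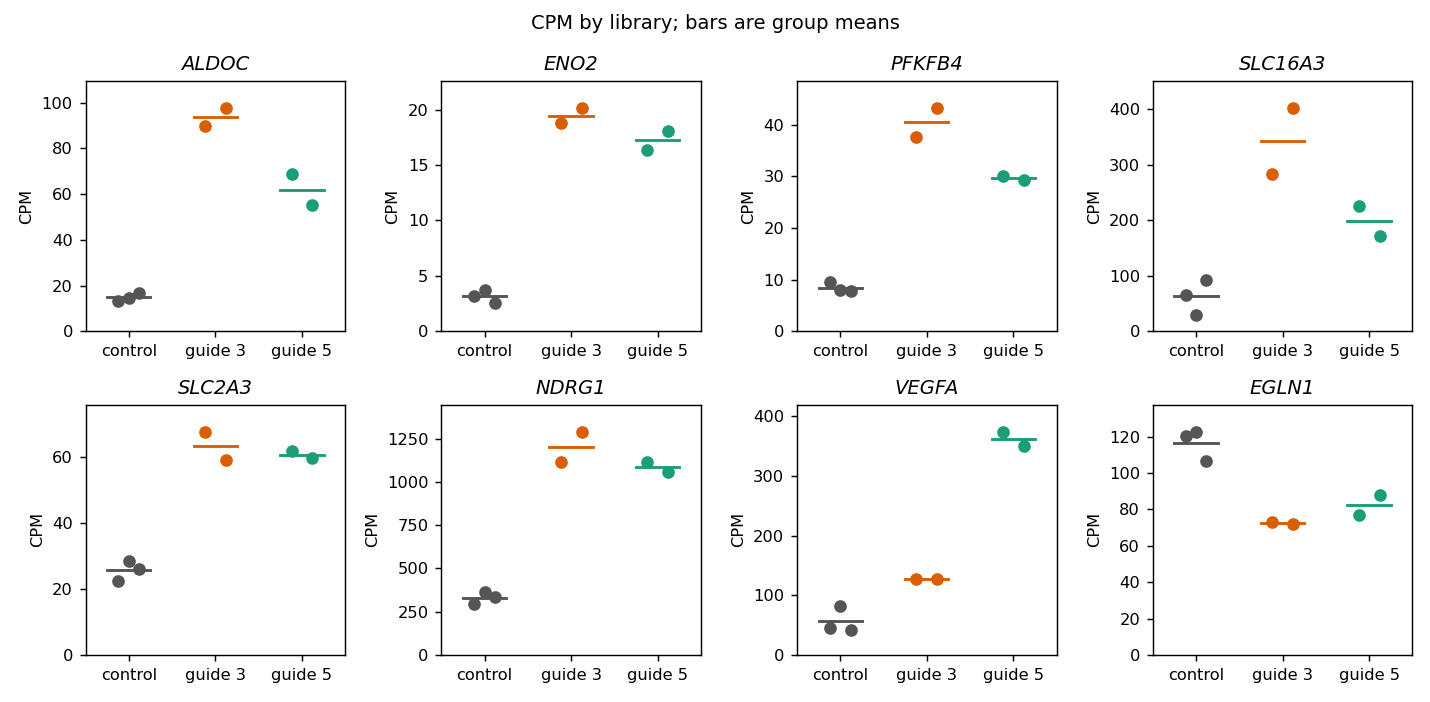
CPM in each library for 8 members (points; horizontal bars are group means; each vertical axis starts at 0 and has its own scale). The 3 controls lie below the 4 guide-labelled libraries for each gene but EGLN1, where they lie above, and VEGFA reaches 351 and 374 CPM with guide 5 against 127 CPM in both guide 3 libraries.

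Of HIF1A and its hydroxylases 0 of 3 rose and 1 fell, with a median of 0.21. HIF1A stood at 81.7, 181 and 78.5 CPM in controls, 127 and 101 CPM with guide 3, and 119 and 148 CPM with guide 5 (0.22 ± 0.26, adjusted p = 0.51). Control replicate 2 was the highest of the 7 libraries and the other controls were the lowest. Without it the change was 0.61 (adjusted p = 0.0056; 0.0056 to 0.98 over the alternatives). EGLN1 encodes PHD2, the main hydroxylase that marks HIF1A, and is itself induced by hypoxia in many cells. It stood at 120, 123 and 107 CPM in controls, 73.1 and 71.8 CPM with guide 3, and 76.8 and 88.1 CPM with guide 5. Each guide library lay below each control (-0.59 ± 0.16, adjusted p = 0.011). Its adjusted p was 0.058 without guide 3 replicate 2 and 0.073 without guide 5 replicate 1, and after correction for GC content the change was -0.28 (adjusted p = 0.045; 0.0015 to 0.073 over the alternatives). EGLN2, which encodes PHD1, shares 30.6% of its exon bases with the readthrough gene RAB4B-EGLN2, so its count is uncertain (0.21 ± 0.20, adjusted p = 0.41).

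Among the 7 other hypoxia-induced genes 5 rose and 0 fell, with a median of 0.72. NDRG1, a stress-responsive gene induced by hypoxia and by differentiation, stood at 297, 363 and 334 CPM in controls, 1116 and 1292 CPM with guide 3, and 1116 and 1060 CPM with guide 5. The lowest guide library, at 1060 CPM, lay far above the highest control, at 363 CPM (1.79 ± 0.16, adjusted p = 3.8e-06). VEGFA stood at 45.0, 82.8 and 41.0 CPM in controls, 127 CPM in both guide 3 libraries, and 374 and 351 CPM with guide 5. It rose with guide 3 (1.24 ± 0.27, adjusted p = 0.0037) and more with guide 5 (2.75 ± 0.27). The difference of 1.51 ± 0.29 passed narrowly (adjusted p = 0.0495), with a mean of 363 CPM against 127 CPM. The size held at 1.46 to 1.56 whichever library was left out, while its adjusted p by limma rose to 0.094 without control replicate 1. The difference did not pass without any one of the guide libraries either. In those latter fits a lone guide library is assumed to vary like the others. After correction for GC content the difference was 1.71 (adjusted p = 0.078).

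BNIP3 and BNIP3L encode mitophagy receptors, and MXI1 a repressor that competes with MYC for its partner MAX. BNIP3 stood at 10.5, 12.5 and 12.3 CPM in controls, 22.0 and 24.2 CPM with guide 3, and 18 and 17.6 CPM with guide 5 (0.77 ± 0.18, adjusted p = 0.0056). BNIP3L stood at 76.7, 125 and 68.6 CPM, 152 and 128 CPM, and 132 and 164 CPM (0.72 ± 0.21, adjusted p = 0.018). MXI1 stood at 70.5, 90.9 and 69.4 CPM, 119 and 112 CPM, and 122 and 141 CPM (0.69 ± 0.17, adjusted p = 0.0071). In these 3 genes each guide library lay above each control. The adjusted p of BNIP3L was 0.059 to 0.080 without control replicate 1 or 3, guide 3 replicate 1 or guide 5 replicate 2. ANKRD37, near 1 to 3 CPM (0.56 ± 0.27, adjusted p = 0.11), and P4HA1, a collagen prolyl hydroxylase subunit (0.02 ± 0.18, adjusted p = 0.92), did not pass.

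**Figure D4:**
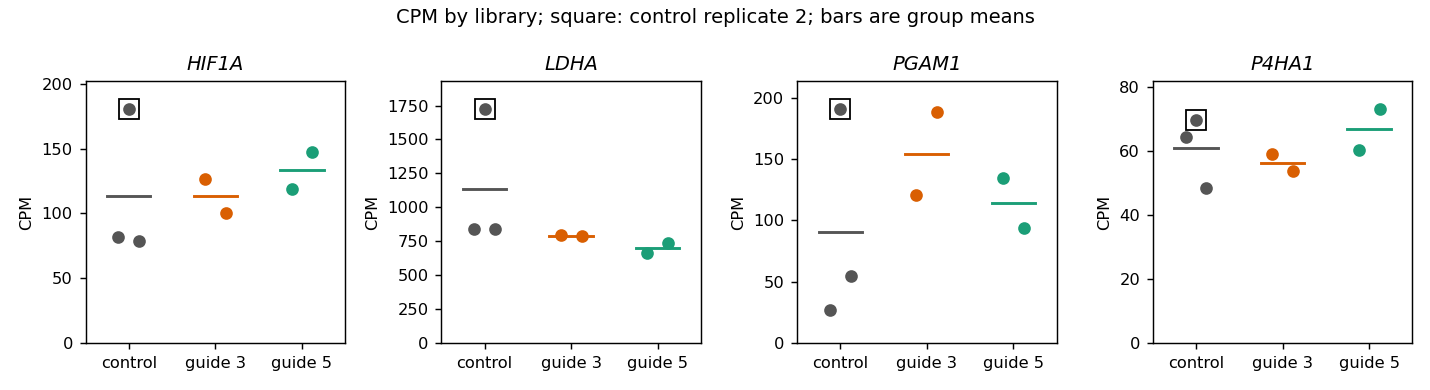
CPM in each library for 4 members that did not pass the threshold (points; horizontal bars are group means; the square marks control replicate 2). Control replicate 2 is the highest library for HIF1A, LDHA and PGAM1, at 181, 1724 and 191 CPM, and the highest control for P4HA1, at 69.9 CPM.

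Control replicate 2 was the highest of the 3 controls for 22 of the 35 members and the lowest for 9. The same count over all genes is not given here, so this is not shown to be a trait of the members. Of the 21 risen members, 11 passed in each alternative in which they were tested: SLC2A3, SLC16A3, HK2, PFKM, ALDOC, ENO2, PFKFB4, NDRG1, VEGFA, BNIP3 and MXI1. Neither of the fallen members did. Of the 11, PFKM was tested in 19 alternatives, PFKFB4 in 20 and the rest in 21. How many of all risen genes passed throughout is not given here, so this count cannot be read as particular to the members. Across all genes, changes went with GC content. Among genes in the tenth that was poorest in GC 3.68% rose and 49.3% fell; the richest genes, as many again, had 55.0% risen and 0.438% fallen. The members' main transcripts had a median GC content of 54.2%, against 48.8% for all genes, and 22 lay above that median. Once GC content and length of transcripts had been corrected for in every library, 18 members rose and 1, EGLN1, fell, with a median of 0.49. In the same fit 2097 of all 11408 genes rose and 1829 fell. Members low in GC gained with the correction and members high in GC lost. BNIP3L (38.9% GC) went from 0.72 to 1.25, HIF1A (39.2%) from 0.22 to 0.74 (adjusted p = 0.038) and P4HA1 (40.9%) from 0.02 to 0.49 (adjusted p = 0.0048), while PFKL (63.5%) went from 0.55 to -0.12 (adjusted p = 0.34). ENO2 and ALDOC kept changes of 2.09 and 1.93. Whether the trend with GC arose in the cells or in the libraries was not tested.

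**Figure D5:**
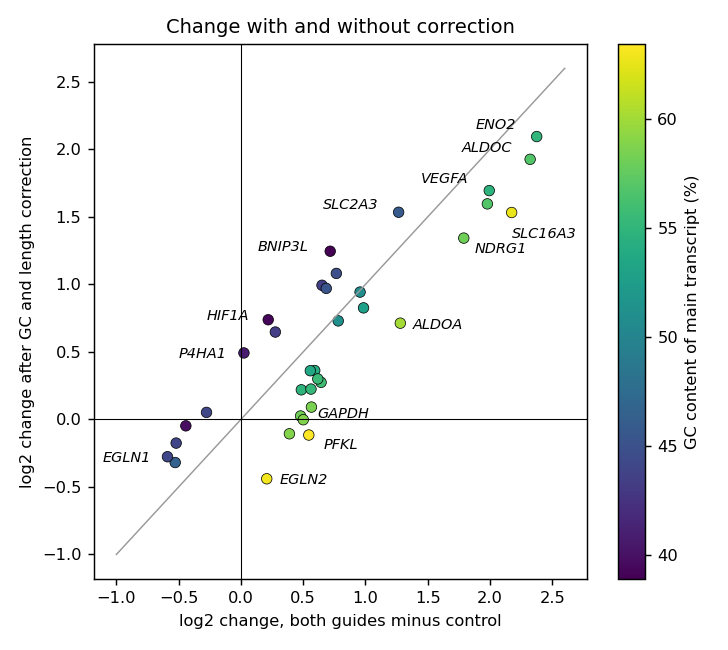
Log2 change of each of the 35 members with both guides, without (horizontal) and with (vertical) correction for GC content and length of the transcript; color gives the GC content of the main transcript in percent, and the grey line marks equal values. Members of low GC content lie above the line and members of high GC content below it, with PFKL at -0.12 and EGLN2 at -0.44 under 0.

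Neighboring pathways were read from further lists. Each count for them stands beside 20.9% of all genes risen and 20.6% fallen. Of 23 other glycolytic isozymes and branch genes 15 were in the table; 6 rose and 4 fell, with a median of 0.02. HK3, a hexokinase abundant in myeloid cells, stood at 0.944 ± 0.657 CPM (SD, n = 3) in controls and 63.3 ± 37.3 CPM (SD, n = 4) with guides (5.39 ± 0.31, adjusted p = 5.0e-08). FBP1, the gluconeogenic enzyme that reverses phosphofructokinase, went from 7.95 ± 0.46 CPM (SD, n = 3) to 108 ± 49.9 CPM (SD, n = 4), a change of 3.57 ± 0.17 (adjusted p = 1.0e-08). The transporter SLC2A6 (2.88 ± 0.34) and the mitochondrial enzyme PCK2 (1.48 ± 0.23) rose as well. On this log2 scale HK3, FBP1 and SLC2A6 thus had larger changes than each of the 35 members. Of 12 genes for the entry of pyruvate into mitochondria, of 13 listed, 0 rose and 0 fell, with a median of -0.15.

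In the pentose phosphate pathway, which branches from glucose 6-phosphate and makes NADPH, all 8 genes were in the table and 4 rose and 2 fell, with a median of 0.66. Among those that rose were PGLS (0.97 ± 0.23), PGD (0.96 ± 0.18) and TKT (0.93 ± 0.18), and RPE (-0.81 ± 0.18) and RPIA (-0.67 ± 0.16), which interconvert pentose phosphates, fell. After correction for GC content the list's median was 0.08, and PGLS no longer passed (0.20, adjusted p = 0.17). By the same limma fit PGD (0.80, adjusted p = 0.0041) and TKT (0.48, adjusted p = 0.0072) still passed upward. RPIA (-0.56, adjusted p = 0.0037) and RPE (-0.28, adjusted p = 0.043) still passed downward.

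Of the HIF partners and regulators 11 of 15 were in the table. Of these 2 rose and 1 fell, with a median of 0.10, while 20.9% of all genes rose and 20.6% fell. EPAS1, the alternative alpha subunit HIF-2 alpha, rose from 0.428 ± 0.231 CPM (SD, n = 3) to 2.09 ± 0.36 CPM (SD, n = 4), a change of 1.499 ± 0.259 (adjusted p = 0.00081), and remained low. P4HTM rose (0.67 ± 0.21) and CUL2, the scaffold of the VHL complex, fell (-0.57 ± 0.18), and neither passed after correction for GC content (adjusted p = 0.99 and 0.78). ARNT (0.20 ± 0.21) and VHL (-0.12 ± 0.16) did not pass.

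Of 31 further hypoxia-induced genes 21 were in the table. Of these 10 rose and 3 fell, with a median of 0.45, while 20.9% of all genes rose and 20.6% fell. The 3 that fell were AK4 (-0.69), TFRC (-0.49) and ZNF395 (-0.48). AK4 and TFRC did not pass after correction for GC content (adjusted p = 0.22 and 0.83 by limma). HMOX1, the heme oxygenase, rose from 1.30 ± 0.14 CPM (SD, n = 3) to 14.9 ± 4.6 CPM (SD, n = 4), a change of 3.05 ± 0.20 (adjusted p = 2.3e-07). MIR210HG, the host transcript of a hypoxia-induced microRNA, had no read in any control and 1.90 ± 0.28 CPM (SD, n = 4) with guides. That is at least 11.7-fold higher than the 0.162 CPM that 3 reads would give in the control with the fewest reads. DDIT4, a stress-induced inhibitor of mTORC1, stood at 9.50, 5.0 and 10.9 CPM in controls, 16.1 and 23.1 CPM with guide 3, and 151 and 133 CPM with guide 5. It thus rose with both guides, as VEGFA did, and was higher with guide 5 by 2.85 ± 0.33 (adjusted p = 0.0014).

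The authors' deposited table, from its own fit, gives 19 members up and 2 down with guide 3 and 11 up and 1 down with guide 5 at a false discovery rate under 0.05. That fit used the same libraries, and the share of all genes that it calls is not given here. For VEGFA the authors' deposited table holds log2 fold changes of 1.17 and 2.69, for ALDOC 2.66 and 2.06, and for LDHA -0.52 and -0.69 with guide 3 and guide 5.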

How the data were processed

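Poly(A) RNA of the 7 libraries was sequenced with 50 single-end cycles from a directional kit, per the labels' protocols. STAR 2.5.3, HTSeq, edgeR and limma with GRCh38.p7 and hg38 are named in the submitters' processing notes, without roles or parameters; how strand was counted is not given in the sources used here, so reads of opposite-strand neighbors may be included. The deposited FPKM per library were scaled by the authors to an adjusted library size and to gene length. The authors' deposited table of comparisons holds mean CPM per group, log2 fold changes and p-values adjusted to a false discovery rate. Of 11581 listed genes 173 had no values.

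The length behind the FPKM, read as the ratio of the mean CPM to the mean FPKM, came out whole (within 0.01) in all 11408 genes, equal to the gene span in GENCODE 29 for 8064, so the deposited FPKM are per kilobase of gene with introns. FPKM were therefore multiplied back to CPM, and 100% of values in each library were whole reads (within 0.01). The values log2(CPM + 0.5) went into limma 3.58.1 (R 4.3.3) with 3 group means and a variance trend, leaving 4 residual degrees of freedom beside 8.78 prior ones. A filter of 1 CPM in at least 2 libraries removed 0 genes. Tests were two-sided, with Benjamini-Hochberg adjustment over 11408 genes. A fold change understates low genes because of the pseudocount. With limma voom on the recovered reads 2374 genes rose and 2418 fell, against 2380 and 2347. The 3 reads set as a floor for MIR210HG allow for counting error only, and no molecular identifiers were used.

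All members are named, and those past the threshold are given in full. Of each further list up to 4 past the threshold with the largest changes are given, with some others by value. Some genes that this rule names are counted in their lists and not reported here. The members and lists were chosen with earlier results of these data known. The fit was also run on simulated counts that held neither a GC trend nor an outlying control. That run therefore says nothing about either. Alternatives were pseudocounts of 0.1 and 1 CPM, other filters, FPKM as deposited, 3 other scalings, a replicate block, no variance trend, library weights, voom, other groupings, correction for GC content and length with splines, and each library left out. Coordinates and UTRs come from GENCODE 29, promoters from RefSeq. Python 3.11.15, pandas 2.3.3, numpy 2.4.6 and matplotlib 3.10.9 were used.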

Additional observations from a re-analysis of the deposited data

Results flagged for a closer look

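VEGFA differed between the guides: guide 5 minus guide 3 gave a log2 difference of 1.51 ± 0.29 by the limma contrast of the guides themselves (adjusted p = 0.0495), at 374 and 351 CPM against 127 CPM in both guide 3 libraries. The size was 1.46 to 1.71 over the alternatives, and the adjusted p ran from 5.2e-08 to 0.39. The targeted gene ZFP36L2 went the other way, at 712 CPM with guide 5 and 1242 CPM with guide 3 (-0.80 ± 0.21, adjusted p = 0.18). The part of guide identity, editing and culture in the VEGFA difference was not tested.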

How the results depend on the processing

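The counts of members that rose kept within 1.5 times of the reported ones in most alternatives, and the counts of 0 to 4 moved most. With both guides the members that fell numbered 1, against 2, with a pseudocount of 0.1 CPM, a mean CPM of at least 10, FPKM as deposited, median of ratios scaling, no variance trend, 1 mean for both guides and the GC content and length correction. With FPKM as deposited 26 members were tested, and 1526 genes of all rose and 1339 fell. For guide 3 the falls numbered 1 with FPKM and 0 with the GC correction. For guide 5 the rises numbered 22 with library weights, and the falls numbered 2 with library weights and 0 with FPKM, quantile, median of ratios or same sum scaling, no variance trend, fits of the compared groups only and the GC correction. For guide 5 minus guide 3 the members higher numbered 0 with a pseudocount of 0.1 CPM, a mean CPM of at least 10, no variance trend and the GC correction, and 2 with library weights or the compared groups only, where 4 were lower.

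The replicate block, whose control replicate 3 has no partner and so drops out, gave 20 members up and 4 down for both guides, 2 down for guide 5 and 2536 and 2810 genes in all. Deviations from the group means correlated at -0.489 to 0.373 between same-numbered libraries. With 2 libraries per guide, the deviations within a guide mirror each other. These values therefore cannot show whether same-numbered libraries share a culture or batch.

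With a library left out, both guides together gave 13 to 24 members up and 0 to 3 down, and 1620 to 3076 and 1111 to 2951 genes in all. Guide 3 gave 9 to 23 up and 0 to 3 down, guide 5 gave 6 to 19 up and 0 to 2 down, and guide 5 minus guide 3 gave 0 to 1 up and 0 down.

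Directions turned for PFKL (-0.12), GAPDH (-0.0020), ENO1 (-0.11), EGLN2 (-0.44) and PDK3 (0.052) with the GC correction, for PFKFB2 (-0.12), EGLN2 (-0.015) and ANKRD37 (-0.067) with quantile normalization, and for P4HA1 with the replicate block (-0.13) and without control replicate 3 (-0.13), guide 3 replicate 1 (-0.0089) or guide 5 replicate 2 (-0.044). Without one library at a time P4HA1 ran from -0.13 to 0.13, and with the GC correction it was 0.49. The cause was not tested. The fewest reads behind a member in a control were 13, for PFKFB2.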
